A study of Homo sapiens with 12 samples.

Results

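DUSP1, DUSP4, DUSP5, DUSP6, DUSP10, SPRY1, SPRY2, SPRY4, SPRED1 and SPRED2 encode dual-specificity phosphatases, Sprouty proteins and SPRED proteins that restrain mitogen-activated protein (MAP) kinase signalling. The 10 were chosen by symbol, with earlier results of these data known, and all are reported whatever their values. All 10 have a row in both deposited tables, which share 25540 genes. The data are RNA-seq values of 12 libraries in 4 groups of 3. LS411N-BR, a derivative of a human colon cancer line that is resistant to BRAF inhibitors, was grown in medium with 4 µM of a BRAF inhibitor, with 500 ng/ml doxycycline in the first group and with 0.1% DMSO as vehicle in the second. LS411N, its BRAF-mutant parental line, was grown without inhibitor, with 500 ng/ml doxycycline in the third group and with 0.1% DMSO in the fourth. All cells carry a doxycycline-inducible hairpin against MUC1 and are puromycin resistant. No library with a control hairpin was analysed here, so loss of MUC1 and doxycycline itself cannot be told apart. Likewise, the resistant state of LS411N-BR and the inhibitor in its medium cannot be told apart. The labels speak of triplicate cultures and give no more on how they were grown, so p-values measure the spread between these libraries, which may be technical.

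The ERK cascade passes a signal from RAS through RAF and MEK to the kinase ERK, and active ERK switches on genes whose products shut the cascade off again. Dual-specificity phosphatases remove phosphate from ERK and from the related kinases JNK and p38. Sproutys act further upstream, between growth factor receptors and RAF, and SPREDs bring the RAS inhibitor neurofibromin to the membrane. In BRAF-mutant colon cancer cells several of these transcripts are widely read as a gauge of ERK output.

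Promoter sequence is shown for DUSP1 and SPRY2, because DUSP1 was higher and SPRY2 lower with doxycycline in both lines (values below) and because the windows differ in letters and in base composition. The windows run from 250 bases before to 50 bases after an annotated start, from RefSeq on GRCh38.p14, 5′ to 3′ on the gene's strand, with matched words in capitals. The 13 windows of 8 members (DUSP1, DUSP6, DUSP10, SPRY1, SPRY2, SPRY4, SPRED1 and SPRED2) were searched on both strands. No window of DUSP4 or DUSP5 was searched. The words were CCGGAA for ETS factors, TGACGTCA for the cAMP response element, TGANTCA for AP-1, CACGTG for the E-box, CTTTGAA for TCF/LEF and TATAAA for the TATA box, and the CArG box of serum response factor was searched by its usual letters.
DUSP1, minus strand, chr5:172771146-172771445: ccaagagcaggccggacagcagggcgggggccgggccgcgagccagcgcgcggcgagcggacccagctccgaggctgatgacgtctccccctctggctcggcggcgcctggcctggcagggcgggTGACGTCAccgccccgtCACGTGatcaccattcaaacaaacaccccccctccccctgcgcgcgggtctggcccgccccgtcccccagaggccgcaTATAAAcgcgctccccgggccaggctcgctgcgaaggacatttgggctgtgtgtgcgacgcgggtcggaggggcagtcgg
SPRY2, minus strand, chr13:80341077-80341376: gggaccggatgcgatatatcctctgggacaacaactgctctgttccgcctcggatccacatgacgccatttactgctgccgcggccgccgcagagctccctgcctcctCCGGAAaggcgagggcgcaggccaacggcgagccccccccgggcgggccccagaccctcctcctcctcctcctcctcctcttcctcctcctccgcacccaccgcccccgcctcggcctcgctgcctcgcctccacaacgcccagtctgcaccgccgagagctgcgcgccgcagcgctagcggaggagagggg
SPRY2, minus strand, chr13:80339610-80339909: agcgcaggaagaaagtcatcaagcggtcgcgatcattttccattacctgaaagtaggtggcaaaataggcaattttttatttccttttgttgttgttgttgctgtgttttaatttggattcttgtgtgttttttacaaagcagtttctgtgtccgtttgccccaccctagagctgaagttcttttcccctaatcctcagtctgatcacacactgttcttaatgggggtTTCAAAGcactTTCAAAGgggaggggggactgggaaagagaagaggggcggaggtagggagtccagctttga
In the DUSP1 window the capitals mark a cAMP response element word whose first base lies at -125 from the start, an E-box word at -108 and a TATA word at -30. These words occur in 1.85, 7.26 and 11.5% of 35116 promoter windows of the same length. The upstream SPRY2 window has an ETS word at -142, which 17.2% of all windows hold. The downstream SPRY2 window has the TCF/LEF word on the opposite strand at -22 and -11, and 4.43% of all windows hold that word. The GC content was 73.3% in the DUSP1 window, 71.0% in the upstream SPRY2 window and 44.7% in the downstream one, against a median of 58.7% over all windows. The remaining SPRY2 start and the windows of DUSP6, DUSP10, SPRY4 and SPRED1 held none of the words. SPRY1 had an ETS word in 1 of 2 windows, and 1 of 2 SPRED2 windows had AP-1 words at -6 and 35 and a TATA word at -31. A matched word is a description of the letters and does not show binding.

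MUC1, the hairpin target, had 0.699, 0.388 and 0.440 TPM (transcripts scaled to a fixed library total) in LS411N-BR with doxycycline, against 3.69, 3.94 and 4.27 TPM without it. The LS411N libraries had 0.986, 0.814 and 0.967 TPM with doxycycline, against 4.64, 6.10 and 4.54 TPM without it. The labels and the target therefore match in every library. Each library listed values above 0 for 15116 to 17999 genes, and TPM keep no record of read depth. Replicate 3 of LS411N without doxycycline stood apart. Short RNA genes took 47.3% of its TPM, while the rest of its group had 58.2 and 58.1%, and its log2 values differed from theirs with an SD of 0.242 and 0.245, against 0.0915 to 0.124 in other replicate pairs. As deposited, all of the 10 genes but DUSP1 and SPRY4 had their highest value of the group in that library, by the widest margins DUSP4, DUSP6, SPRY2 and SPRED1. Of 10 colon epithelial markers, 9 reached 1 TPM in every group, and CDX1 stayed at or below 0.0493 TPM. Fibroblast markers summed to 2.85 to 3.79 TPM in LS411N-BR with doxycycline, against 1.52 to 1.85 TPM without it, and to 0.629 to 0.762 against 0.338 to 0.483 TPM in LS411N. The sum in LS411N-BR was mostly LUM (2.71 ± 0.45 against 1.31 ± 0.20 TPM, SD, n = 3), while COL1A2, COL3A1 and DCN were at most 0.0166 TPM in every library. Endothelial markers summed to at most 0.0406 TPM. Of 5 immune markers 1 reached 1 TPM, LYZ, which intestinal cells also make, and PTPRC, which marks leukocytes, was at most 0.00343 TPM. The immune sum, nearly all LYZ, was 47.9 to 49.6 TPM in LS411N-BR with doxycycline against 146 to 155 TPM without it, and 1373 to 1411 against 2269 to 3079 TPM in LS411N. The colon markers were themselves higher in sum with doxycycline. They summed to 4109 to 4325 TPM in LS411N-BR with it, against 2697 to 2879 TPM without it, and to 3013 to 3480 against 2111 to 2958 TPM in LS411N. Not every marker shared this, since as deposited the groups of EPCAM, KRT18, CDH1 and VIL1 overlapped in LS411N, though not in LS411N-BR. The part of these shifts in the results below was not tested.

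**Figure D1:**
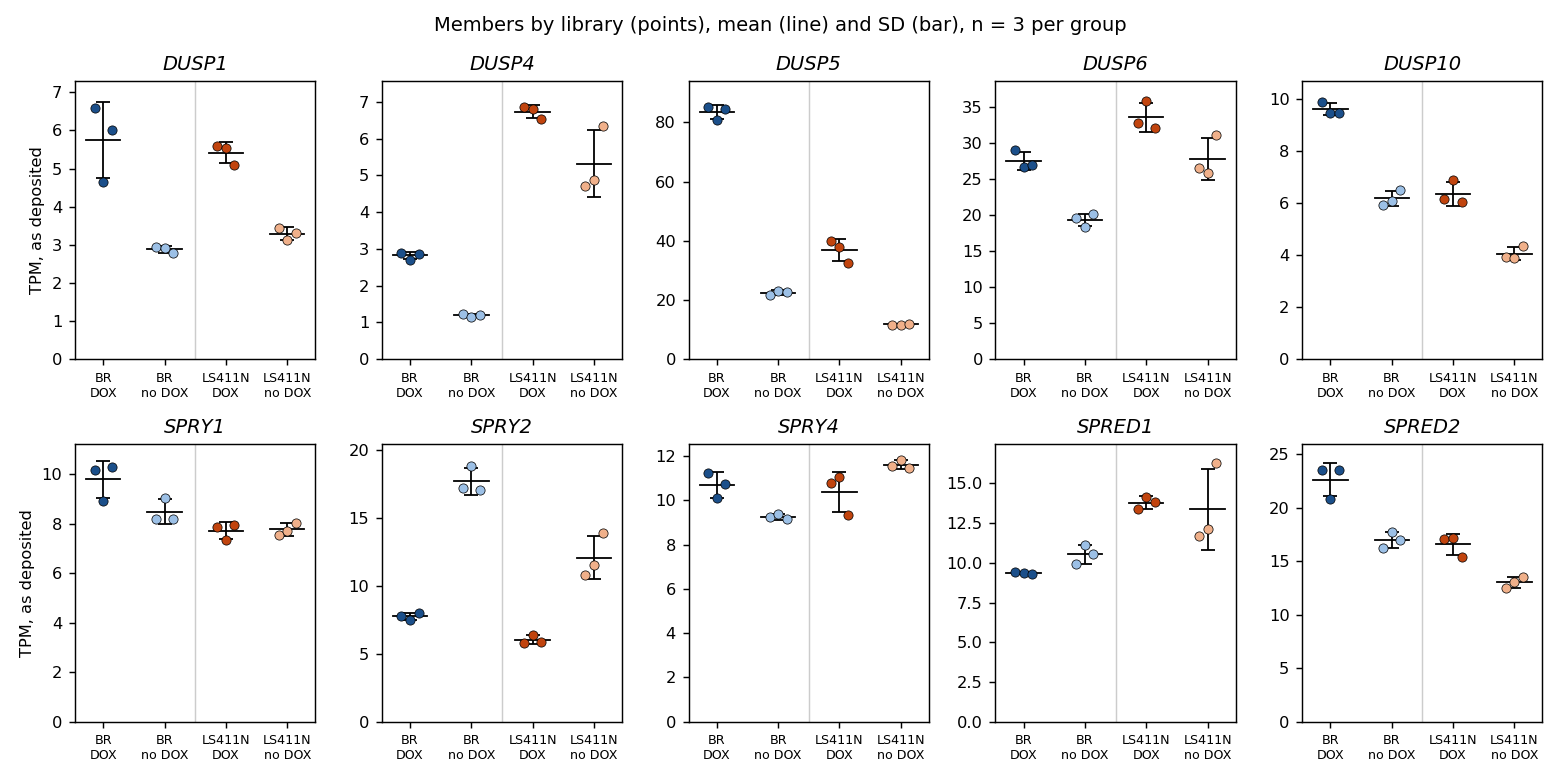
TPM as deposited of each of the 10 genes in LS411N-BR (BR) with and without doxycycline (DOX) and in LS411N with and without it. Points are libraries, lines are means and bars are SD (n = 3 per group). DUSP5 is higher and SPRY2 lower in every library with doxycycline of both lines, and DUSP4 is lowest in LS411N-BR without doxycycline.

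The question put to each line was which of these transcripts differed between cells with the induced hairpin and cells with vehicle. All 5 phosphatase transcripts were called higher in LS411N-BR, where 56.1% of all tested genes were. In LS411N 3 of them (DUSP1, DUSP5 and DUSP10) were called higher, beside 9.75% of all tested genes. After the median-of-ratios rescaling described below all 5 were called higher in both lines, beside 32.3 and 18.8% of all tested genes. SPRY2 fell in both lines. The log2 differences of SPRY1, SPRY4 and the SPREDs were at most 0.39 in size. DUSP5 was the largest rise, 3.72-fold in mean TPM in LS411N-BR and 3.14-fold in LS411N. SPRY2 was the largest fall, to 0.439 of its level in LS411N-BR and to 0.500 in LS411N. Changes were tested with limma on log2(TPM + 1), and calls were made where the adjusted p (Benjamini-Hochberg, over all tested genes) was below 0.05.

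All 10 genes passed the filter of 1 TPM in at least 3 libraries in both lines. In LS411N-BR all 10 were called, 8 of them higher and 2 lower, but there 67.2% of 11322 tested genes were called, 56.1% higher and 11.1% lower. In LS411N 4 were called, 3 higher and 1 lower, against 13.2% of 11281 tested genes, 9.75% higher and 3.43% lower. With median-of-ratios rescaling, which moves the typical gene to no change, the counts were 6 higher and 2 lower in LS411N-BR (of all tested genes 64.5% were called, 32.3% higher and 32.2% lower) and 6 higher and 1 lower in LS411N (34.8% called, 18.8% higher and 16.0% lower). Groups did not overlap for 7 genes higher and 2 lower in LS411N-BR, where 56.0 and 12.1% of tested genes did so, and for 6 higher and 2 lower in LS411N, where 19.3 and 9.61% did. The median log2 fold change of all tested genes was 0.18 in LS411N-BR and 0.08 in LS411N as deposited, and -0.00 and 0.01 after rescaling. The 10 genes had medians of 0.44 and 0.28 as deposited and of 0.24 and 0.21 after rescaling. A 2-fold change on the log2(TPM + 1) scale was called for DUSP5 and SPRY2 in LS411N-BR, where 2.01% of tested genes had one (1.51% higher and 0.503% lower), and for DUSP5 in LS411N, where 1.13% had one (0.798% higher and 0.337% lower). After rescaling the same genes had one, against 1.68% of tested genes in LS411N-BR (0.84% higher and 0.84% lower) and 1.06% in LS411N (0.647% higher and 0.417% lower). A pseudocount of 0.1 TPM adds DUSP4 in LS411N-BR, whose low level is shrunk most by the pseudocount of 1. In LS411N-BR limma gave every gene the spread of the trend, so adjusted p-values as deposited are very small there and those after rescaling are given beside them.

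**Figure D2:**
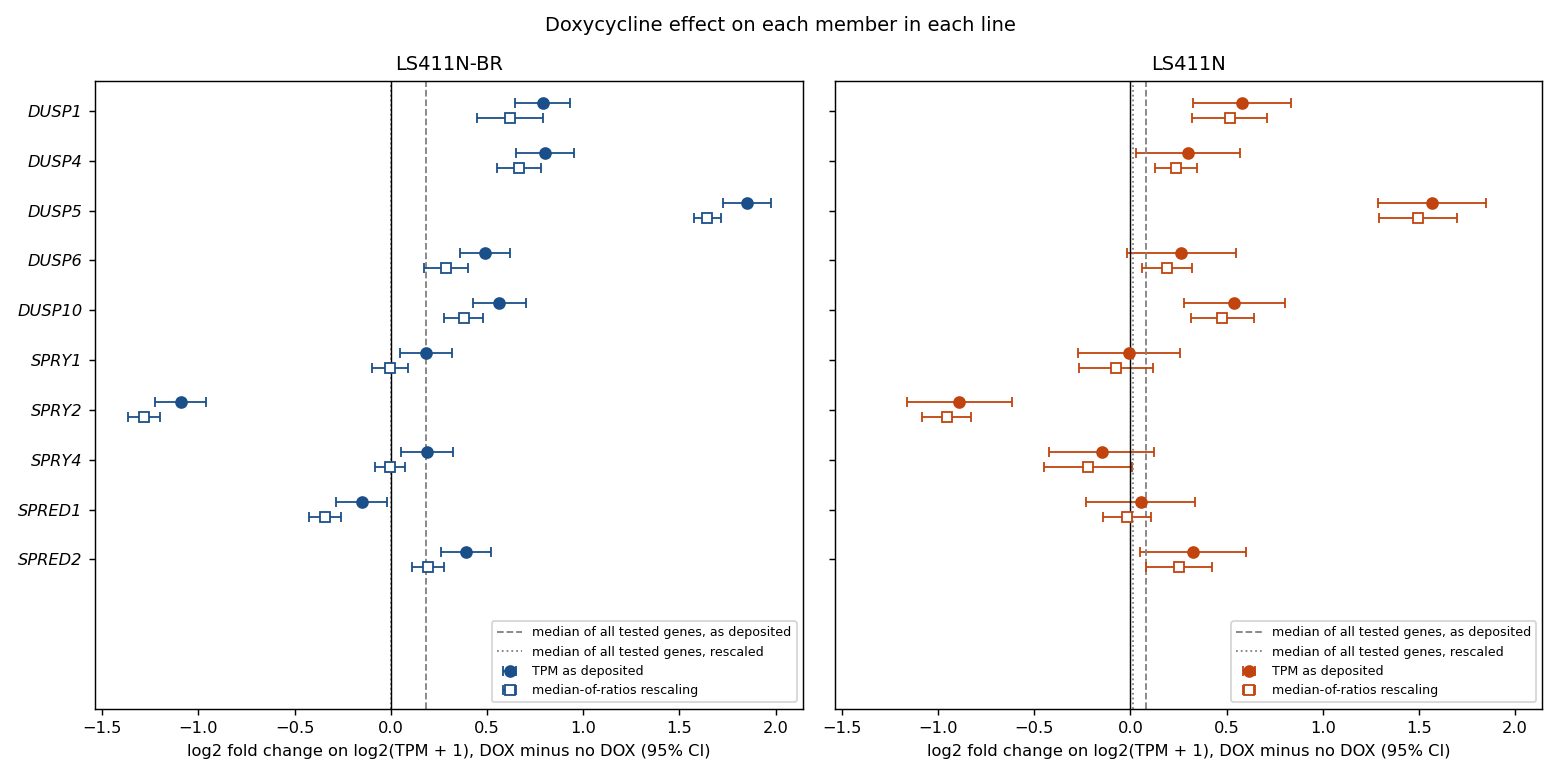
Log2 fold change (log2(TPM + 1), doxycycline minus no doxycycline) of each gene with its 95% confidence interval in LS411N-BR (left) and LS411N (right). Filled circles are TPM as deposited, open squares are after median-of-ratios rescaling, and dashed and dotted lines are the medians of all tested genes. DUSP5 lies farthest right at 1.85 and 1.57, and SPRY2 farthest left at -1.09 and -0.89.

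DUSP5 is a nuclear phosphatase with a preference for ERK, encoded on chromosome 10 (110497838 to 110511544, plus strand, GRCh38, GENCODE 29). It had 85.3, 81.0 and 84.4 TPM in LS411N-BR with doxycycline, against 21.5, 23.0 and 22.8 TPM without it. LS411N had 39.8, 37.8 and 32.6 TPM with doxycycline, against 11.4, 11.7 and 11.96 TPM without it. The groups lay far apart in both lines, and LS411N with doxycycline exceeded LS411N-BR without it, as each table gives the values. The log2 fold change was 1.85 ± 0.06 (SE) in LS411N-BR (limma adjusted p = 8.32e-181, and 1.65 with adjusted p = 7.41e-10 after rescaling). It was 1.57 ± 0.14 in LS411N (limma adjusted p = 3.67e-12, and 1.495 with 9.82e-06 after rescaling). In LS411N-BR 15 tested genes had a larger log2 fold change, and in LS411N 23 did. Over all alternatives tried the change stayed between 1.65 and 1.89 in LS411N-BR and between 1.39 and 1.65 in LS411N, and was called in each.

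DUSP6 is the cytoplasmic ERK phosphatase, encoded on chromosome 12 (89347232 to 89353271, minus strand). It had 28.97, 26.6 and 26.9 TPM in LS411N-BR with doxycycline, against 19.5, 18.4 and 20.1 TPM without it. The values in LS411N were 32.7, 35.9 and 32.0 TPM with doxycycline, against 26.5, 25.8 and 31.1 TPM without it. The groups did not overlap in either line, but in LS411N the library that stood apart came close to the libraries with doxycycline. DUSP6 rose by 0.49 on the log2 scale in LS411N-BR (limma adjusted p = 5.29e-13, and 0.29 with 0.000716 after rescaling). In LS411N the difference of 0.27 ± 0.14 (SE) was not called (adjusted p = 0.241). It was called after rescaling (0.19, adjusted p = 0.032) and without the library that stood apart (0.35, adjusted p = 0.00067).

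DUSP4, a nuclear phosphatase of ERK and JNK, lies on chromosome 8 (29333064 to 29350668, minus strand). It had 2.89, 2.71 and 2.86 TPM in LS411N-BR with doxycycline, against 1.24, 1.14 and 1.19 TPM without it. In LS411N it had 6.86, 6.81 and 6.52 TPM with doxycycline, against 4.71, 4.89 and 6.36 TPM without it. Its level with doxycycline in LS411N-BR was thus below every LS411N library. DUSP4 rose 2.37-fold in mean TPM in LS411N-BR (log2 fold change 0.80 ± 0.08 SE, limma adjusted p = 2.02e-24, and 0.67 with 2.95e-06 after rescaling). In LS411N the 1.27-fold difference was not called (0.30 ± 0.13, adjusted p = 0.145), was called after rescaling (0.24, adjusted p = 0.00638), and was 0.42 without the library that stood apart (adjusted p = 0.00015).

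DUSP1 is an immediate early phosphatase that acts on p38, JNK and ERK, encoded on chromosome 5 (172768090 to 172771195, minus strand). It had 6.60, 4.65 and 6.01 TPM in LS411N-BR with doxycycline, against 2.95, 2.91 and 2.78 TPM without it. The LS411N libraries had 5.60, 5.54 and 5.10 TPM with doxycycline, against 3.45, 3.12 and 3.31 TPM without it. The groups did not overlap in either line, and the spread among the LS411N-BR libraries with doxycycline was the widest. DUSP1 rose 2.00-fold in LS411N-BR (log2 fold change 0.79 ± 0.07 SE, limma adjusted p = 2.24e-26, and 0.62 with 6.89e-05 after rescaling). In LS411N it rose 1.64-fold (0.58 ± 0.13, adjusted p = 0.000909, and 0.52 with 0.00232 after rescaling).

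DUSP10, which prefers JNK and p38 over ERK, lies on chromosome 1 (221701424 to 221742176, minus strand). It had 9.89, 9.49 and 9.49 TPM in LS411N-BR with doxycycline, against 5.94, 6.10 and 6.52 TPM without it. LS411N had 6.14, 6.90 and 6.06 TPM with doxycycline, against 3.94, 3.90 and 4.35 TPM without it. The groups did not overlap in either line. DUSP10 rose 1.56-fold in LS411N-BR (log2 fold change 0.56 ± 0.07 SE, limma adjusted p = 3.01e-15, and 0.38 with 5.48e-05 after rescaling) and 1.57-fold in LS411N (0.54 ± 0.13, adjusted p = 0.00245, and 0.48 with 0.00144 after rescaling). The LS411N call was lost without replicate 2 with doxycycline (adjusted p = 0.065).

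SPRY2, an adaptor that binds the ubiquitin ligase CBL and the adaptor GRB2, lies on chromosome 13 (80335976 to 80340951, minus strand). It had 7.75, 7.51 and 8.03 TPM in LS411N-BR with doxycycline, against 17.2, 18.8 and 17.1 TPM without it. The values in LS411N were 5.81, 6.42 and 5.88 TPM with doxycycline, against 10.8, 11.5 and 13.9 TPM without it. No library with doxycycline reached the lowest library without it, also across the lines. SPRY2 fell by 1.09 on the log2 scale in LS411N-BR (SE 0.07, limma adjusted p = 5.42e-57, and by 1.28 with 5.24e-09 after rescaling). In LS411N it fell by 0.89 (SE 0.14, adjusted p = 3.21e-06, and by 0.96 with 9.82e-06 after rescaling). Without the LS411N library that stood apart, where SPRY2 was highest, it fell by 0.79 (adjusted p = 3.5e-06). In LS411N-BR 49 tested genes had a lower log2 fold change, and in LS411N 54 did.

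SPRY1 and SPRY4, which like SPRY2 act on receptor signalling to RAS and RAF, were not called lower in either line as deposited. SPRY4 (chromosome 5, 142310427 to 142326455, minus strand) had 11.2, 10.1 and 10.7 TPM in LS411N-BR with doxycycline, against 9.24, 9.39 and 9.14 TPM without it. In LS411N it had 10.8, 11.04 and 9.34 TPM with doxycycline, against 11.5, 11.8 and 11.4 TPM without it. Its groups did not overlap in either line, higher with doxycycline in LS411N-BR and lower in LS411N, as deposited. The log2 difference was 0.19 in LS411N-BR (limma adjusted p = 0.0101), but -0.00 after rescaling (adjusted p = 0.95), and -0.15 in LS411N (adjusted p = 0.546, and -0.22 with 0.123 after rescaling). In 2 of 18 alternatives SPRY4 was called lower in LS411N, at -0.22 (adjusted p = 0.035) after rescaling with the replicate block and at -0.34 (adjusted p = 0.00057) after rescaling without the library that stood apart. SPRY4-AS1, an antisense gene over SPRY4, had 2.99 ± 0.37 TPM in LS411N-BR with doxycycline against 2.04 ± 0.16 TPM without it, and 5.07 ± 0.51 against 3.75 ± 1.39 TPM in LS411N (SD, n = 3). The library kit keeps strand, but the sources used here do not say whether the counting did, so reads of the 2 genes may be mixed.

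SPRY1 (chromosome 4, 123396795 to 123403760, plus strand) had 10.2, 8.93 and 10.3 TPM in LS411N-BR with doxycycline, against 8.20, 9.05 and 8.21 TPM without it, and these groups overlapped. The LS411N libraries had 7.88, 7.33 and 7.95 TPM with doxycycline, against 7.53, 7.71 and 8.04 TPM without it, which overlapped too. The call in LS411N-BR (log2 fold change 0.18, limma adjusted p = 0.0121) equalled the shift of the typical gene and was gone after rescaling (-0.00, adjusted p = 0.932). The difference in LS411N was -0.01 (95% confidence interval -0.27 to 0.26, adjusted p = 0.981), and -0.16 after rescaling without the library that stood apart, where it was called (adjusted p = 0.043).

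SPRED2 and SPRED1 are membrane-bound inhibitors that work with neurofibromin. SPRED2 (chromosome 2, 65310851 to 65432637, minus strand) had 23.5, 20.9 and 23.5 TPM in LS411N-BR with doxycycline, against 16.2, 17.7 and 17.0 TPM without it. LS411N had 17.1, 17.2 and 15.4 TPM with doxycycline, against 12.5, 13.0 and 13.5 TPM without it. The groups did not overlap in either line. SPRED2 rose by 0.39 on the log2 scale in LS411N-BR (limma adjusted p = 1.17e-08, and 0.19 with 0.00121 after rescaling). The LS411N difference of 0.32 was not called (adjusted p = 0.116), but was after rescaling (0.25, adjusted p = 0.0321) and without the library that stood apart (0.35, adjusted p = 0.00071).

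SPRED1 (chromosome 15, 38252326 to 38357249, plus strand) went the other way in LS411N-BR. It had 9.44, 9.36 and 9.32 TPM there with doxycycline, against 9.94, 11.1 and 10.5 TPM without it. The values in LS411N were 13.4, 14.2 and 13.8 TPM with doxycycline, against 11.7, 12.1 and 16.3 TPM without it. The groups overlapped in LS411N only. SPRED1 fell by 0.15 on the log2 scale in LS411N-BR (limma adjusted p = 0.0398, and by 0.34 with 3.03e-05 after rescaling), a call as deposited that was lost in 9 of 17 alternatives. The LS411N difference was 0.05 (adjusted p = 0.861), -0.02 after rescaling (adjusted p = 0.842), and 0.19 without the library that stood apart (adjusted p = 0.011).

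The makeup of each family is free of the scale of a library, since both values of a ratio come from the same library. The pairs were chosen with the values known and carry no test. DUSP5 over DUSP6 was 3.04 ± 0.10 in LS411N-BR with doxycycline against 1.17 ± 0.08 without it, and 1.10 ± 0.11 in LS411N with doxycycline against 0.423 ± 0.035 without it (SD, n = 3). The ranges of LS411N-BR without doxycycline and of LS411N with it overlapped. SPRY2 over SPRY4 was 0.727 ± 0.033 against 1.91 ± 0.08 in LS411N-BR and 0.584 ± 0.045 against 1.04 ± 0.15 in LS411N, and its groups did not overlap in either line. SPRED2 over SPRED1 was 2.41 ± 0.16 against 1.61 ± 0.02 in LS411N-BR and 1.20 ± 0.08 against 0.991 ± 0.139 in LS411N. DUSP4 over DUSP6 was 0.103 ± 0.003 against 0.0617 ± 0.0020 in LS411N-BR. In LS411N that ratio was 0.201 ± 0.010 against 0.191 ± 0.013 and its groups overlapped. DUSP5 over SPRY2, the genes that moved most in opposite directions, was 10.8 ± 0.2 against 1.27 ± 0.06 in LS411N-BR and 6.09 ± 0.68 against 0.976 ± 0.101 in LS411N.

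**Figure D3:**
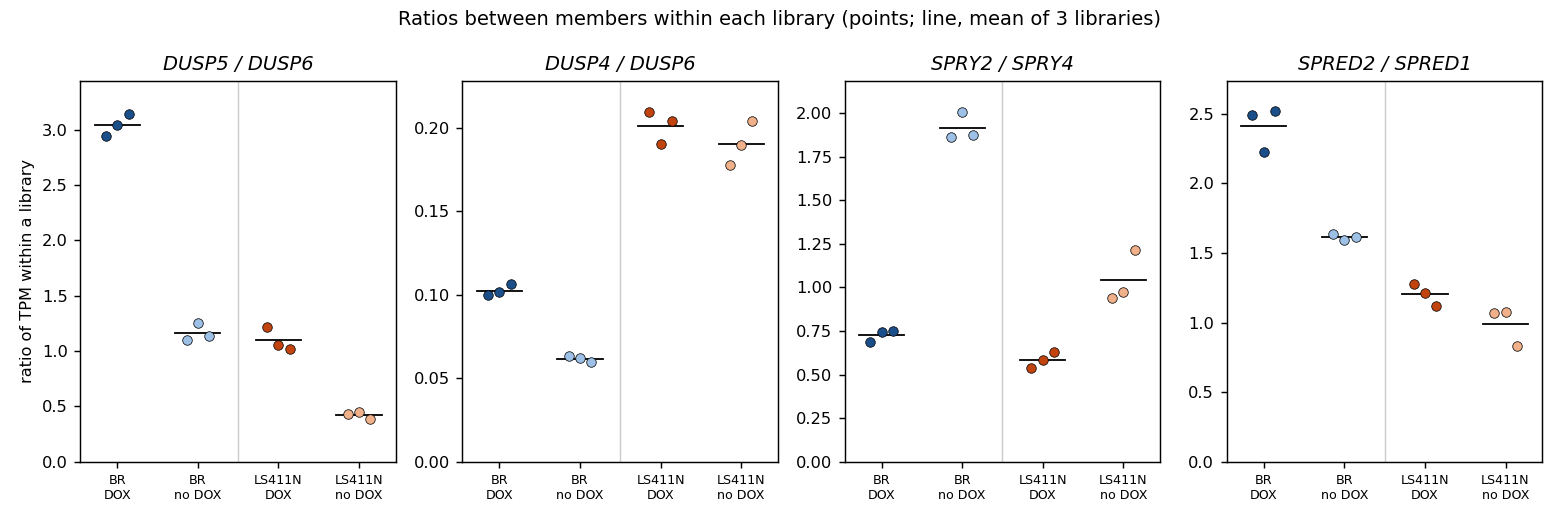
Ratios of TPM between pairs of members within a library, in LS411N-BR (BR) and LS411N with and without doxycycline (DOX). Points are libraries and lines are means of 3. DUSP5 over DUSP6 is near 3.04 in LS411N-BR with doxycycline and near 0.423 in LS411N without it, and SPRY2 over SPRY4 is lower with doxycycline in both lines, at 0.727 against 1.91 in LS411N-BR and 0.584 against 1.04 in LS411N.

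The phosphatases added up to more with doxycycline and the Sproutys to less. On TPM rescaled over the genes both tables share, the 5 phosphatases summed to 129 ± 4.6 TPM in LS411N-BR with doxycycline, against 52.0 ± 1.2 TPM without it, and to 113 ± 5.0 against 66.6 ± 4.0 TPM in LS411N (SD, n = 3). DUSP5 made up 64.7% of that sum in LS411N-BR with doxycycline, against 43.2% without it, and 41.3 against 22.5% in LS411N. DUSP6 was the leading phosphatase in LS411N without doxycycline, at 53.2% of the sum, and DUSP5 led in the other 3 groups. The 3 Sproutys summed to 28.2 ± 1.5 against 35.5 ± 1.6 TPM in LS411N-BR and to 30.8 ± 0.6 against 40.2 ± 1.6 TPM in LS411N. SPRY2 made up 27.5% of the Sprouty sum in LS411N-BR with doxycycline, against 49.9% without it, and 25.0 against 38.3% in LS411N. The SPREDs summed to 32.0 ± 1.5 against 27.5 ± 1.3 TPM in LS411N-BR and to 38.7 ± 1.0 against 33.7 ± 3.2 TPM in LS411N.

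**Figure D4:**
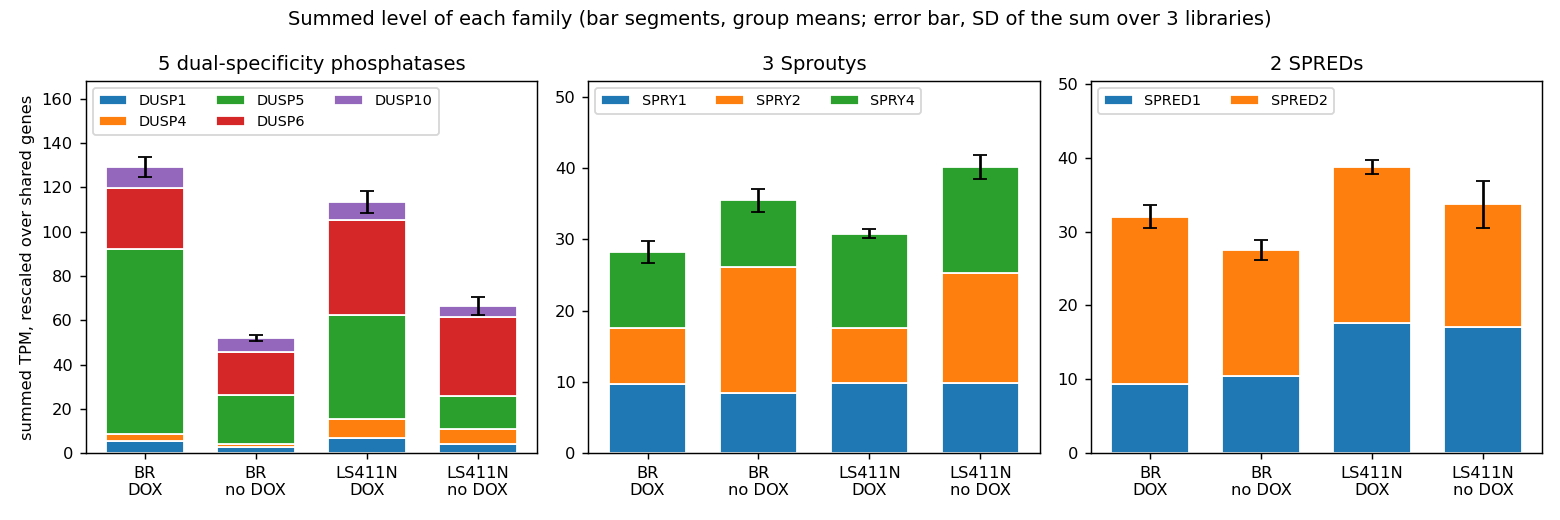
Summed TPM, rescaled over genes in both tables, of the phosphatases, Sproutys and SPREDs in LS411N-BR (BR) and LS411N with and without doxycycline (DOX). Segments are group means of single genes and bars are the SD of the sum (n = 3). The DUSP5 segment makes up 64.7% of the phosphatases in LS411N-BR with doxycycline, and the SPRY2 segment shrinks with doxycycline in both lines.

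Whether doxycycline acted differently in the 2 lines was tested as the LS411N-BR effect minus the LS411N effect in 1 limma fit over all 12 libraries. None of the 10 genes was called, against 2.12% of 11674 tested genes (1.39% higher and 0.728% lower), although DUSP4, DUSP5 and SPRY4 had an unadjusted p under 0.05 (0.0012, 0.0422 and 0.0135). DUSP4 came closest, with a difference of 0.50 ± 0.13 (SE, 95% confidence interval 0.22 to 0.78, limma adjusted p = 0.0548). After rescaling 3 genes were called, against 10.2% of tested genes (4.37% higher and 5.81% lower). These were DUSP4 at 0.42 (limma adjusted p = 0.00126), SPRY2 at -0.31 (adjusted p = 0.00873) and SPRED1 at -0.32 (adjusted p = 0.00869). The same 3 were called as deposited without the LS411N library that stood apart, at 0.39 for DUSP4 (adjusted p = 0.0064), -0.30 for SPRY2 (0.034) and -0.35 for SPRED1 (0.0093). Calls were more common in that setting, with 465 of 11624 tested genes higher and 593 lower. SPRY4, whose direction as deposited was opposite in the lines, differed by 0.34 ± 0.12 (SE, adjusted p = 0.223). Without that library SPRY4 was called too (0.35, adjusted p = 0.02), while after rescaling of all libraries it was not (0.22, adjusted p = 0.239). The difference was 0.28 for DUSP5 (95% confidence interval 0.01 to 0.55, adjusted p = 0.36), and it was called in 1 of 23 alternatives, rescaling without that library (0.24, adjusted p = 0.018). It was 0.02 for DUSP10 (-0.23 to 0.28), so the interval for DUSP10 leaves room for a difference of either sign.

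Levels in LS411N-BR were then set beside those in LS411N, with no test, since the tables were scaled over different genes. Across 4 scalings DUSP4, DUSP6, SPRED1 and SPRY4 lay below LS411N in every LS411N-BR library without doxycycline, and DUSP5 and DUSP10 lay above it. With doxycycline the same held for DUSP4, DUSP6, SPRED1, DUSP5 and DUSP10, but not for SPRY4. With each scaling taken alone, 30.8 to 55.6% of all genes lay higher without overlap there and 23.7 to 47.4% lower. The share of all genes that did so under all 4 scalings was not computed. Without doxycycline, on TPM rescaled over shared genes, DUSP4 had 1.19 ± 0.05 TPM in LS411N-BR and 6.78 ± 1.01 TPM in LS411N (SD, n = 3), and the ratio was 0.176 to 0.224 over the scalings. DUSP6 had 19.3 ± 0.9 TPM in LS411N-BR and 35.5 ± 2.9 TPM in LS411N (ratio 0.545 to 0.695). SPRY4 had 9.26 ± 0.13 and 14.8 ± 0.6 TPM in the 2 lines (0.624 to 0.798), and SPRED1 had 10.5 ± 0.6 and 17.1 ± 2.9 TPM (0.618 to 0.787). DUSP5 had 22.5 ± 0.8 TPM in LS411N-BR and 14.9 ± 0.3 TPM in LS411N (1.504 to 1.92). DUSP10 had 6.19 ± 0.30 and 5.19 ± 0.20 TPM (1.19 to 1.52). DUSP1, SPRY1, SPRY2 and SPRED2 had overlapping groups under at least 1 scaling. On this scale 15.6% of 11880 genes lay higher in LS411N-BR without overlap and 49.5% lower, with a median log2 ratio of -0.22, and with median-of-ratios rescaling the shares were 41.5 and 34.6%. Being lower or higher was therefore common, and the ratio of DUSP4 was the most extreme of the 10 genes.

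By order of level, DUSP5 was the most abundant of the 10 in LS411N-BR in both conditions and in LS411N with doxycycline, where DUSP6 came next. The means in LS411N with doxycycline were 46.8 ± 3.5 TPM for DUSP5 and 42.8 ± 2.5 TPM for DUSP6 (rescaled over shared genes, SD, n = 3), within the sum of their SDs, although the ratio of DUSP5 to DUSP6 was 1.02 to 1.22 within the 3 libraries of that group. In LS411N without doxycycline DUSP6 was highest, at 35.5 ± 2.9 TPM. DUSP4 was the lowest in LS411N-BR and DUSP1 the lowest in LS411N.

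Of the other members of these families, 3 of 7 reached the filter, and DUSP8, DUSP9, SPRY3 and SPRED3 did not. DUSP16, a JNK phosphatase, rose in both lines, to 25.5 ± 0.9 TPM in LS411N-BR with doxycycline against 16.6 ± 1.5 TPM without it (limma adjusted p = 3.77e-18) and to 28.5 ± 1.3 against 19.7 ± 3.3 TPM in LS411N (adjusted p = 0.00777). DUSP2, a nuclear phosphatase, had 4.95 ± 0.73 against 3.67 ± 0.29 TPM in LS411N-BR (adjusted p = 6.22e-06) and 3.29 ± 0.20 against 2.94 ± 0.49 TPM in LS411N (adjusted p = 0.581). The count called higher was 3 of 3 in LS411N-BR and 1 of 3 in LS411N, beside 56.1 and 9.75% of all tested genes, and none was lower.

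Transcripts that follow ERK activity were called higher in 10 of 12 cases and lower in 1 in LS411N-BR, and higher in 6 of 13 and lower in 1 in LS411N. Of all tested genes 56.1% were called higher and 11.1% lower in LS411N-BR, and 9.75% higher and 3.43% lower in LS411N. After rescaling the counts were 8 higher and 2 lower in LS411N-BR, beside 32.3 and 32.2% of all tested genes. In LS411N they were 3 higher and 1 lower, beside 18.8 and 16.0%. The list's median log2 fold change was 0.51 in LS411N-BR and 0.12 in LS411N, beside 0.18 and 0.08 over all tested genes. After rescaling the list's medians were 0.31 and 0.05, beside -0.00 and 0.01. CCND1, which encodes cyclin D, had 108 ± 6.5 TPM with doxycycline against 57.2 ± 3.0 TPM without it in LS411N-BR, and 100 ± 3.1 against 59.6 ± 4.3 TPM in LS411N. EPHA2, a receptor kinase, had 31.3 ± 1.1 against 15.9 ± 0.2 TPM in LS411N-BR and 27.3 ± 2.3 against 13.96 ± 0.37 TPM in LS411N. Both rose in both lines (limma adjusted p at most 0.000127), but not all of the list did. The 6 not called in LS411N (ETV4, ETV5, FOSL1, EGR1, IER2 and LIF) had log2 fold changes of -0.29 to 0.12. KCNN4 was the 1 called lower there (-0.91, limma adjusted p = 6.97e-07). The 2 called lower in LS411N-BR after rescaling were ETV5 (-0.19, limma adjusted p = 0.00113) and LIF (-0.45, adjusted p = 1.54e-05).

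Of 16 genes of the ERK cascade, 16 were called higher in LS411N-BR and 2 in LS411N, none lower, while of all tested genes 56.1 and 9.75% were called higher. After rescaling 12 and 5 were called higher, beside 32.3 and 18.8% of all tested genes. MAPK3, which encodes an ERK kinase, had 25.0 ± 1.5 TPM with doxycycline against 16.5 ± 0.7 TPM without it in LS411N-BR and 16.4 ± 0.6 against 10.2 ± 0.6 TPM in LS411N. It was 1 of the 2 called in LS411N (limma adjusted p = 0.000701).

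Other inhibitors of the cascade showed no shared direction. In LS411N-BR 6 of 11 were called higher, near the 56.1% of all tested genes, and 3 lower (PHLDA1, RASA1 and SH2B3), beside 11.1%. After rescaling 4 were higher and 5 lower, beside 32.3 and 32.2% of all tested genes. In LS411N limma called 0 of 11, beside 13.2% of all tested genes. After rescaling it called 1 higher and 2 lower there, beside 18.8 and 16.0%. RASA2, a RAS GTPase-activating protein, had 17.2 ± 1.2 against 9.76 ± 0.43 TPM in LS411N-BR (adjusted p = 5.21e-28) and 7.27 ± 0.21 against 5.38 ± 1.09 TPM in LS411N (adjusted p = 0.0513). CBL, the ligase that SPRY2 binds, had 14.7 ± 1.1 against 10.6 ± 0.7 TPM in LS411N-BR (adjusted p = 3.21e-10) and 9.41 ± 0.58 against 8.99 ± 1.37 TPM in LS411N (adjusted p = 0.815). The JNK and p38 list held these kinases, the other substrates of the phosphatases, and also the MAP2K kinases that activate them. Of its 9 tested genes 5 were called higher in LS411N-BR and 2 in LS411N, beside 56.1 and 9.75% of all tested genes. The 5 were MAPK11 and MAPK14 and the activators MAP2K3, MAP2K4 and MAP2K7. After rescaling 1 was higher and 4 lower in LS411N-BR, beside 32.3 and 32.2% of all tested genes. In LS411N 2 were then higher and 1 lower, beside 18.8 and 16.0%. MAP2K3, a p38 activator, was higher in both lines, with 38.5 ± 1.4 against 22.2 ± 1.2 TPM in LS411N-BR and 28.1 ± 2.3 against 20.5 ± 0.4 TPM in LS411N (adjusted p = 4.94e-31 and 0.0274). MAP2K7, a JNK activator, had 8.90 ± 0.47 against 7.47 ± 0.36 TPM in LS411N-BR (adjusted p = 0.00222, and 0.46 after rescaling) and 10.5 ± 0.7 against 9.90 ± 0.84 TPM in LS411N (adjusted p = 0.779).

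Genes whose products bind Sproutys or SPREDs were called higher in 4 of 9 cases and lower in 1 in LS411N-BR, and higher in 1 of 9 in LS411N. Of the 9, CBL, NF1 and RASA1 were also counted among the other inhibitors, and GRB2 and PTPN11 in the ERK cascade. After rescaling 2 were higher and 3 lower in LS411N-BR, where 32.3 and 32.2% of all tested genes were. In LS411N 1 was then higher and 4 lower, beside 18.8 and 16.0%. Of all tested genes 56.1 and 9.75% were called higher in the 2 lines as deposited, and 11.1 and 3.43% lower. The gene called in LS411N as deposited was CAV1, caveolin of the plasma membrane, a Sprouty binding partner. It had 7.35, 7.36 and 8.20 TPM in LS411N-BR with doxycycline, against 6.47, 5.91 and 6.59 TPM without it. In LS411N it had 5.60, 6.41 and 5.86 TPM with doxycycline, against 2.03, 1.80 and 1.60 TPM without it. The groups did not overlap in either line. CAV1 rose by 0.24 ± 0.07 (SE) on the log2 scale in LS411N-BR (limma adjusted p = 0.00132, and 0.503 after rescaling) and by 1.31 ± 0.13 in LS411N (adjusted p = 4.3e-11).

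Across the 12 libraries, centred within each line, the genes whose log2 values were most like those of DUSP5 were CDKN1A, a cyclin-dependent kinase inhibitor (Pearson r = 0.998), TNFRSF21, a death receptor (0.998), and EPB41L1, a cytoskeletal protein (0.998), out of 10934 genes. CDKN1A had 61.7 ± 3.6 TPM in LS411N-BR with doxycycline against 17.9 ± 0.4 TPM without it, and 21.8 ± 1.6 against 7.22 ± 0.64 TPM in LS411N. For SPRY2 they were KIAA1324 (0.997), RGMB, a co-receptor of bone morphogenetic proteins (0.997), and ADAT1, an RNA editing deaminase (0.996). KIAA1324 had 2.99 ± 0.12 against 13.0 ± 1.3 TPM in LS411N-BR and 4.64 ± 0.27 against 15.6 ± 3.8 TPM in LS411N. For SPRED2 they were VPS37B, a sorting protein (0.991), METTL7B (0.990) and SLC7A5, an amino acid transporter (0.990). Such values are common because every library shares the doxycycline split: 586 genes exceeded 0.95 with DUSP5 and 174 with SPRY2. Between members, DUSP5 and DUSP10 had r = 0.983, DUSP4 and DUSP6 0.969, DUSP5 and SPRY2 -0.980, and DUSP5 and SPRED1 -0.223.

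The genes differ in structure and in words that mark unstable mRNA. SPRY1 and SPRY2 have 1 coding exon each and SPRY4 has 2, against 3 or 4 in the phosphatases, 7 in SPRED1 and 6 in SPRED2 (GENCODE 29). The AU-rich word ATTTA was counted in the longest annotated 3′ UTR. DUSP1, whose mRNA is known to be short-lived, had 4 in 672 bases (5.95 per kb), more per kb than 94.9% of the 10073 genes compared. SPRED1 had 24 in 5585 bases (4.30 per kb), and SPRY2 had 2 in 782 bases (2.56 per kb). DUSP5, the gene that rose most, had 0 in 1118 bases, and DUSP6 had 1 in 2022 bases. The median was 2.34 per kb over the 10 genes and 1.73 per kb over all genes compared. The longer word TATTTAT was found in 7 of the 10, against 35.8% of all genes compared, and was not found in DUSP5, DUSP6 or DUSP10. A count of words does not measure mRNA stability in these cells.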

How the data were processed

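The authors deposited TPM per gene for 12 libraries in 2 tables, 1 per line, and each library sums to 1000000 TPM. Libraries were made with a stranded mRNA kit, per the labels' protocols. STAR, DESeq2 and GRCh38 are named, without roles, per the submitters' processing notes. Which program made the TPM is not stated in the sources used here. TPM keep no depth, so the depth is unknown and no counting interval is given. The LS411N table lists 25673 genes and that of LS411N-BR lists 25540, so levels between lines are given after rescaling over shared genes and without a test.

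The doxycycline effect was fitted per line on log2(TPM + 1) with limma 3.58.1 in R 4.3.3 (trend on, two-sided), for genes that reached 1 TPM in 3 or more libraries. The difference between lines was the interaction over 12 libraries. All log2 fold changes are on that scale, which understates changes of low genes. The fits were tested on simulated data with independent noise per gene and no shift shared by a whole library. That test does not bear on such shifts. Replicate numbers were not used as a block in the main fits, since libraries of the same number deviated together no more than others. A pairing is not excluded by this. Alternatives were other pseudocounts, filters, scalings and moderation, and leaving out each library. Median-of-ratios rescaling with the replicate block, or without replicate 3 of LS411N without doxycycline, was added after seeing the data.

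The members and lists were chosen with earlier results of these data known. Named beside the members are genes of each list called at least 2-fold, otherwise the 2 with the smallest adjusted p in LS411N-BR, and the 3 genes most like DUSP5, SPRY2 and SPRED2. One of the genes that this rule names is not reported here. Gene coordinates and 3′ UTRs are those of GENCODE 29 (GRCh38), and promoters those of RefSeq on GRCh38.p14 for 8 members.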

Additional observations from a re-analysis of the deposited data

Results flagged for a closer look

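CAV1 was flagged because the effect of doxycycline on it differed between the lines. The log2 fold change was 0.24 in LS411N-BR and 1.31 in LS411N, and the difference was -1.07 ± 0.13 (SE, limma adjusted p = 2.45e-05 over 11674 genes, and 0.000251 after median-of-ratios rescaling). Rescaled over shared genes, CAV1 without doxycycline had 6.33 ± 0.36 TPM in LS411N-BR and 2.31 ± 0.31 TPM in LS411N (SD, n = 3).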

How the results depend on the processing

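DUSP5 and SPRY2 kept their direction and their call in both lines under every alternative in which they were tested. So did DUSP1 in both lines and DUSP4, DUSP6, DUSP10 and SPRED2 in LS411N-BR. In LS411N-BR DUSP1 and DUSP4 were tested in 16 alternatives, against 17 for the others, because they missed the filter of 5 TPM. As deposited, 1100 genes were higher and 387 lower in LS411N, 6351 and 1252 in LS411N-BR, and 162 and 85 in the difference between lines. In LS411N any value above 0 gave 583 and 223 genes, a filter of 5 TPM gave 253 lower, median-of-ratios rescaling gave 2124 and 1802, rescaling over protein-coding genes 2772 and 1314, and a spread from all 12 libraries 2000 and 692. In LS411N-BR median-of-ratios rescaling gave 3652 and 3641, rescaling over protein-coding genes 2446 lower, and a spread from all 12 libraries 750 lower. For the difference, a pseudocount of 0.1 TPM gave 59 and 50, a filter of 5 TPM 84 and 56, median-of-ratios rescaling 510 and 678, and protein-coding rescaling 573 and 428. Median-of-ratios rescaling without replicate 3 of LS411N without doxycycline gave 2813 and 2446 in LS411N, and 974 and 1387 in the difference. Leaving out each library gave 454 to 5930 higher and 170 to 707 lower in LS411N, and 67 to 465 higher and 47 to 593 lower in the difference. The highest counts in LS411N came without replicate 3 without doxycycline, and the lowest without replicate 3 with doxycycline. The cause was not tested.

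With the replicate number as a block, 632 genes were higher and 268 lower in LS411N, 5561 and 989 in LS411N-BR, and 179 and 100 in the difference. With the replicate block and median-of-ratios rescaling the counts were 2190 and 1814, 3659 and 3636, and 392 and 607. Deviations of libraries with the same number correlated at 0.003 to 0.173 in the 6 pairs, within the -0.212 to 0.214 of libraries with different numbers. These values cannot settle whether the numbers pair the libraries, and the labels do not say. Under that fit, as under median-of-ratios rescaling alone, SPRED1 in LS411N was -0.016, SPRY1 and SPRY4 in LS411N-BR were -0.0045 and -0.0028, and the differences of DUSP10 and SPRED2 were -0.099 and -0.058.

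Signs turned for values near 0. Protein-coding rescaling gave differences of -0.078 for DUSP10 and -0.021 for SPRED2, a pseudocount of 0.1 TPM gave -0.0052 for DUSP10, and rescaling without replicate 3 of LS411N without doxycycline gave -0.046 for DUSP10. Leaving out 1 library gave -0.029 to 0.19 for SPRED1 and -0.027 to 0.025 for SPRY1 in LS411N, and -0.016 to 0.075 for the difference of DUSP10. SPRY1 in LS411N was called at -0.163 after rescaling without replicate 3 without doxycycline. Between lines without doxycycline, SPRY1 had log2 ratios of 0.13 as deposited, 0.079 over protein-coding genes and 0.050 by median of ratios, and with doxycycline DUSP1 and SPRY4 had 0.087 and 0.042 as deposited. Without doxycycline 5 genes as deposited, 4 over protein-coding genes and 4 by median of ratios lay higher in LS411N-BR, against 2 over shared genes. With doxycycline the counts were 5, 5 and 4 against 2, and 3 lay lower as deposited and over protein-coding genes, against 5 over shared genes. Of all genes, 15.6 to 41.5% lay higher over the 4 scalings without doxycycline, and 30.8 to 55.6% higher and 23.7 to 47.4% lower with it. TPM keep no depth, so what depth limits could not be judged.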
